A study of Mus musculus with 3 samples.

Results

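Macrophages that carried the transcripts of G2 and mitosis were examined in single-cell RNA-Seq libraries of cardiac mononuclear phagocytic cells (MPCs) of young mice. G2/M macrophages were selected on their measured UMIs (unique molecular identifiers, 1 per captured RNA molecule). A cell was taken as one when C1qa, C1qb and C1qc together held at least 0.3% of its UMIs and at least 4 of 8 mitotic genes were detected, namely Aspm, Cdc20, Ccnb1, Cenpf, Hmmr, Kif20a, Plk1 and Cep55. Before that, cells were kept with 500 to 30000 UMIs, 500 to 5000 genes and under 10% of UMIs from mitochondrial genes. The rule found 901 G2/M macrophages among 7889 C1q-positive cells and 10550 kept cells. The rule reads measured transcripts, so the levels of its 11 genes, and of genes that rise and fall with them through the cell cycle, are a description and support nothing.

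All 3 groups were C57BL/6 mice operated on at postnatal day 10 (P10) and collected 3 days later, at postnatal day 13. P10-sham_vehicle mice had sham surgery, and P10-MI_vehicle and P10-MI_SB225002 mice had a myocardial infarction (MI) made by tying off the left anterior descending coronary artery. Mice of the last group were given SB225002, which blocks the chemokine receptor CXCR2, by daily intraperitoneal injection, and the others vehicle. Where 3 values follow each other below, the first is for P10-sham_vehicle, the next for P10-MI_vehicle and the last for P10-MI_SB225002. CD45+F4/80+ cells that excluded the dye 7AAD were sorted from the infarct zone (IZ) and border zone (BZ), with hearts pooled. The study's protocol for cell isolation has sodium butyrate, a histone deacetylase inhibitor, in the buffers for mincing, washing and staining. There was 1 library per group, so nothing was tested between groups, and group and library cannot be told apart.

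A macrophage that enters division first copies its DNA in S phase, passes through G2, and then divides in mitosis. Cyclin B1 (Ccnb1) activates the kinase that starts mitosis, Polo-like kinase 1 (Plk1) drives centrosome maturation and spindle assembly, Cdc20 turns on the ubiquitin ligase APC/C that ends mitosis, and Cep55 acts at the last bridge between the daughter cells. Many such genes are repressed in resting cells by the DREAM complex and activated late in the cycle by MYBL2 and FOXM1, and local division is one known way in which heart macrophages keep up their number.

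The promoters of 5 of the rule's genes are given here because late cell cycle genes are known to share short promoter elements. Each line holds 150 bases, from 120 before to 30 from the transcription start onwards, written 5′ to 3′ on the gene's own strand and taken from RefSeq on GRCm38.p6. Capitals mark TTTGAA or TTTAAA, the core of the cell cycle genes homology region (CHR) to which DREAM binds, and CCAAT, the NF-Y box, each also where it reads as the reverse complement.
Ccnb1 (chr13:100786457-100786606, minus strand): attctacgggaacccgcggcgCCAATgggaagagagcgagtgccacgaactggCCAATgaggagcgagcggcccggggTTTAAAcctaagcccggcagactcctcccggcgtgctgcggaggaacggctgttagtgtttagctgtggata
Cdc20 (chr4:118437314-118437463, minus strand): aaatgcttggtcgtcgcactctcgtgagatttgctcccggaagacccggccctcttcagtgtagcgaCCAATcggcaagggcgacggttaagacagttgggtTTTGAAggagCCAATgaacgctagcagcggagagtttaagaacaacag
Plk1 (chr7:122159315-122159464, plus strand): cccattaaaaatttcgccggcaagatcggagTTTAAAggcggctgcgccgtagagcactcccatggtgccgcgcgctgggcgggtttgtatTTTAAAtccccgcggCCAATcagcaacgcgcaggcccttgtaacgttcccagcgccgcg
Aspm (chr1:139454653-139454802, plus strand): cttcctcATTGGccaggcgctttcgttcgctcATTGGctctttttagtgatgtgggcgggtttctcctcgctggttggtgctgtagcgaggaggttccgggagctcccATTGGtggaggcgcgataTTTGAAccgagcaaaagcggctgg
Cep55 (chr19:38054921-38055070, plus strand): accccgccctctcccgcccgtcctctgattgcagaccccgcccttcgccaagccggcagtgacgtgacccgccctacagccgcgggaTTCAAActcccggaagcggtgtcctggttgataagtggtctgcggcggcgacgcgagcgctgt

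Each of these holds the CHR letters within 50 bases of the start. In Ccnb1 they begin 42 bases before it, behind a pair of CCAAT boxes, in Cdc20 18 bases before it, and in Aspm 7 bases into the transcript. Plk1 has them at 89 and at 29 bases before the start. Outside the printed bases, Plk1 also has them 31 bases into the transcript, and Aspm 246 and 136 bases before the start. Cep55 holds them only as the reverse complement, 33 bases before this start and 25 bases into the transcript of another annotated start, and has no CCAAT. Over the promoters that could be matched by symbol (250 bases before to 50 after the start, both strands searched), the CHR letters stood in 8 of 8 promoters of 7 rule genes, with Kif20a not matched. They stood in 48 of 67 promoters (71.6%) of 63 of 77 other G2/M genes, described below, and in 27.6% of all 32851 mouse promoters. The S phase list had 6 of 24 promoters with the CHR letters (25%) and 17 with CCAAT (70.8%), against 37.4% of all promoters with CCAAT. The macrophage and resident lists had the CHR letters in 8 of 24 promoters (33.3%). A match is a run of letters and not a measured binding site.

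The library totals were 29323567 to 34235864 UMIs over all barcodes. G2/M macrophages were among the deeper cells, with median UMIs of 11012 in P10-sham_vehicle, 10528 in P10-MI_vehicle and 9354 in P10-MI_SB225002. The medians were 7050, 5564 and 4494 in non-dividing C1q-positive cells, which had at most 1 rule marker and at most 1 of 8 S phase genes. From 1260 to 1844 cell barcodes occurred in both of any pair of libraries, and 8 to 13 of these were G2/M macrophages in both. Cells with the same barcode had a median correlation across genes of 0.58 to 0.61, and cells with different barcodes 0.58 to 0.62. A doublet caller worked on none of the libraries (0 or 1 cells called), so the top 6% of doublet scores were taken out as an alternative, which held 7.08% to 9.03% of the G2/M macrophages and 2.98% to 6.16% of the non-dividing cells. C1q-positive cells made up 89.9%, 72.8% and 68.7% of the kept cells.

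The macrophage label was checked on genes the rule did not read. Adgre1, which encodes the sort marker F4/80, stood at 428, 402 and 345 CPM (counts per 1000000 UMIs of the class) in the G2/M macrophages. Csf1r, the receptor of the macrophage growth factor CSF1, was at 822, 705 and 698 CPM. All 14 genes of the macrophage list were above 100 CPM in each library. These 14 genes summed to 7765, 8452 and 10887 CPM, and to 7964, 6433 and 10365 CPM in cells below the C1q limit that met the mitotic rule. The list thus did not set these 2 classes apart in every library. The 6 fibroblast genes summed to 18.8 to 27.4 CPM and the 6 endothelial genes to 12.9 to 39.5 CPM. The 6 cardiomyocyte genes summed to 275, 154 and 223 CPM, the 6 B cell genes to 123, 192 and 98.1 CPM, and the 8 monocyte genes to 423, 975 and 1149 CPM. Neutrophil genes were higher, and their 8 genes summed to 2803, 9539 and 8211 CPM. These UMIs sat in few cells, since 4, 16 and 29 G2/M macrophages had at least 1% of their UMIs from these genes and together held 95.7%, 97.5% and 94.6% of them. Without these cells the sums were 124, 271 and 495 CPM, and 0, 6 and 9 of these cells were among the highest doublet scores.

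G2/M macrophages were a smaller part of the C1q-positive cells in P10-MI_vehicle than in either other library. They numbered 277 of 2115 cells in P10-sham_vehicle (13.1%, 95% Clopper-Pearson interval 11.7 to 14.6), 226 of 2513 in P10-MI_vehicle (8.99%, 7.90 to 10.2) and 398 of 3261 in P10-MI_SB225002 (12.2%, 11.1 to 13.4). P10-MI_vehicle minus P10-sham_vehicle was -4.1 percentage points (Newcombe interval -5.97 to -2.26), and the share was 3.21 points higher in P10-MI_SB225002 than in P10-MI_vehicle (1.59 to 4.81). These intervals cover counting error of single libraries and not the spread between hearts. P10-MI_SB225002 minus P10-sham_vehicle was -0.89 points, with an interval of -2.77 to 0.94 that spans 0.

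With 4 markers required, the differences were smaller at equal depth. When every cell was thinned to 3000 UMIs and shallower cells were left out, G2/M macrophages were 5.60%, 4.41% and 5.40% of C1q-positive cells, and both intervals of difference spanned 0 (-1.19, -2.59 to 0.19, and 1.0, -0.29 to 2.26). Fewer cells reach 4 markers at 3000 UMIs. With at least 2 markers in thinned cells, a setting added after the data were seen, the shares were 13.3%, 10.3% and 15.3% and both intervals excluded 0 (-3.04, -5.08 to -1.01, and 5.02, 3.07 to 6.94). Cells with at least 0.1% of UMIs from the 8 markers were 8.98%, 7.24% and 8.92%. P10-MI_vehicle was lowest under each of these settings, while P10-sham_vehicle and P10-MI_SB225002 changed places.

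**Figure D1:**
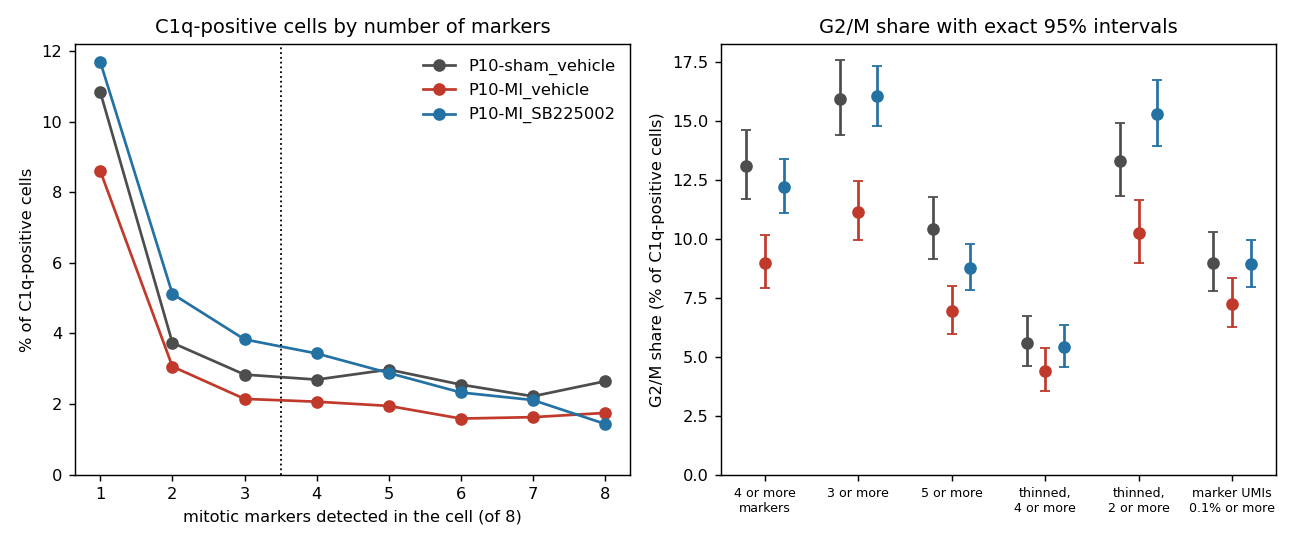
Left, the percentage of C1q-positive cells (y axis) with 1 to 8 mitotic markers detected (x axis) in each library, with the rule's limit as a dotted line and cells with no marker left out. Right, the G2/M share in percent under 6 definitions, with points for libraries and bars for exact 95% intervals of counting error; P10-MI_vehicle is lowest under each.

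The limits of the rule cut through a continuous range. Cells with exactly 3 markers, just outside, numbered 60, 54 and 125 and held 474, 448 and 510 CPM of the 8 markers. Cells with exactly 4, just inside, numbered 57, 52 and 112 and held 647, 691 and 802 CPM. At the C1q limit there were few cells: 5, 9 and 23 cells with 4 or more markers had C1q at 0.2% to under 0.3%, and 8, 15 and 21 had 0.3% to under 0.4%. At the other end, all 8 markers were detected in 56, 44 and 47 cells, which was 20.2%, 19.5% and 11.8% of the G2/M macrophages. P10-MI_SB225002 had the lowest share with a full set and also the lowest median UMIs, and the part of depth in this was not tested.

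S phase cells were fewest in P10-MI_vehicle. Cells with at least 4 of 8 replication genes (Mcm3, Mcm5, Mcm6, Gins2, Uhrf1, Tyms, Clspn and Dtl) and fewer than 4 mitotic markers made up 18.2%, 10.7% and 14.3% of C1q-positive cells, and in cells thinned to 3000 UMIs 4.52%, 3.39% and 5.91%, so that the order of the other libraries turned with depth. Of the cells in either phase, G2/M macrophages were 41.9%, 45.7% and 46.0%, with intervals that overlapped. Among C1q-low cells, G2/M made up 5.49%, 4.68% and 7.55%. C1q-positive cells were 95.5%, 83.7% and 78.0% of all cells with at least 4 markers.

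Within the C1q-positive cells, the G2/M share differed with some resident marker genes. Cells with at least 3000 UMIs were classed by the rule at full depth, so depth still enters the class. They were split by whether the cell, thinned to 3000 UMIs, held a UMI of Lyve1, the hyaluronan receptor of a resident heart macrophage type. The G2/M share was 11.4% with it and 15.1% without in P10-sham_vehicle, 6.92% and 11.9% in P10-MI_vehicle and 9.70% and 15.7% in P10-MI_SB225002. Folr2, a folate receptor of resident macrophages, gave 9.87% and 17.4%, 9.67% and 11.4%, and 13% and 15.9%. Both genes went with a lower share in all 3 libraries, while Cx3cr1, the fractalkine receptor, went with a higher one (15.0% and 11.8%, 11.1% and 9.86%, 15.7% and 13.7%). Of these 9 splits, those by Lyve1 in the MI libraries and by Folr2 in P10-sham_vehicle had intervals that did not overlap. Gpnmb, a gene of lipid-handling macrophages, had 0 G2/M cells of 37 in P10-sham_vehicle (Clopper-Pearson upper bound 9.49%), 6 of 144 in P10-MI_vehicle (4.17%) and 56 of 453 in P10-MI_SB225002 (12.4%), against 14.3%, 11.1% and 15.2% without the gene. After thinning, a Lyve1 UMI was found in 23.4%, 15.9% and 11% of G2/M macrophages and in 15.4%, 4.65% and 2.70% of C1q-low G2/M cells, both classed at full depth. The part of free RNA in these shares was not tested.

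The mitotic genes of the rule are given as a description. Ccnb1 was at 142, 129 and 156 CPM in the G2/M macrophages, Plk1 at 146, 139 and 166 CPM, and Cdc20 at 160, 161 and 204 CPM. Cenpf, a kinetochore protein that appears in G2, stood at 396, 372 and 290 CPM, Hmmr, a spindle protein, at 193, 215 and 148 CPM, and Aspm, which holds spindle poles together, at 161, 152 and 134 CPM. The last 3 were lowest in P10-MI_SB225002, and Ccnb1, Plk1 and Cdc20 were highest there. Summed over the 8 genes the level was 1424, 1404 and 1300 CPM, against 15.3, 14.3 and 25.4 CPM in non-dividing cells.

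Against non-dividing C1q-positive cells of the same library, the G2/M macrophages carried the whole set of mitotic genes, and this comparison asks what else goes with it. UMIs were summed per class and library and fitted with edgeR's quasi-likelihood test, with the library as a block, over 3 libraries that differ in condition. Of 12064 genes, 2278 were higher (18.9%) and 2108 lower (17.5%) in G2/M macrophages at an adjusted p under 0.05, and the median log2 fold change of all genes was -0.03. Without the library block the counts were 1122 and 422, and with DESeq2 1370 and 892, so the counts depend on how the spread is estimated. All 77 other G2/M genes were higher, with a median log2 fold change of 4.82, which the choice of cells brings about. Non-dividing cells drawn to match the depth of the members gave 1622 and 1511.

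Among the mitotic groups, the 17 spindle genes had the highest median log2 fold change (5.33), followed by the 10 kinases (5.17) and the 7 cytokinesis genes (4.87). On summed CPM the kinases came before the spindle genes, with log2 ratios of 5.01, 4.79 and 4.38 against 4.41, 4.18 and 3.74. Nusap1, which bundles spindle microtubules, was at 316, 233 and 178 CPM in the G2/M macrophages and at 2.30, 3.10 and 3.39 CPM in non-dividing cells (log2 fold change 6.33 ± 0.14 SE). Kif11, the motor that separates the spindle poles, was at 229, 197 and 158 CPM against 2.43, 3.49 and 4.16 CPM (5.83 ± 0.13). Prc1, which organizes the midzone of the dividing cell, was at 339, 266 and 202 CPM against 4.49, 4.65 and 5.80 CPM (5.73 ± 0.13). These 3 genes were named from the 10 highest called genes, so that their classes did not overlap follows from the choice of genes and cells. Foxm1, the activator of late cell cycle genes, was at 97.7, 75.9 and 66.1 CPM against 1.33, 1.75 and 3.29 CPM (5.20 ± 0.19), and Ube2c, the ubiquitin-conjugating enzyme of the APC/C, at 634, 532 and 652 CPM against 15.2, 18.9 and 28.4 CPM (4.89 ± 0.12). Pttg1, the securin that blocks the protease separase until anaphase, was the weakest of the 77, at 48.0, 49.4 and 50.4 CPM against 40.9, 40.6 and 45 CPM, a log2 fold change of 0.23 ± 0.09 whose call was lost under 8 of 9 alternatives.

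**Figure D2:**
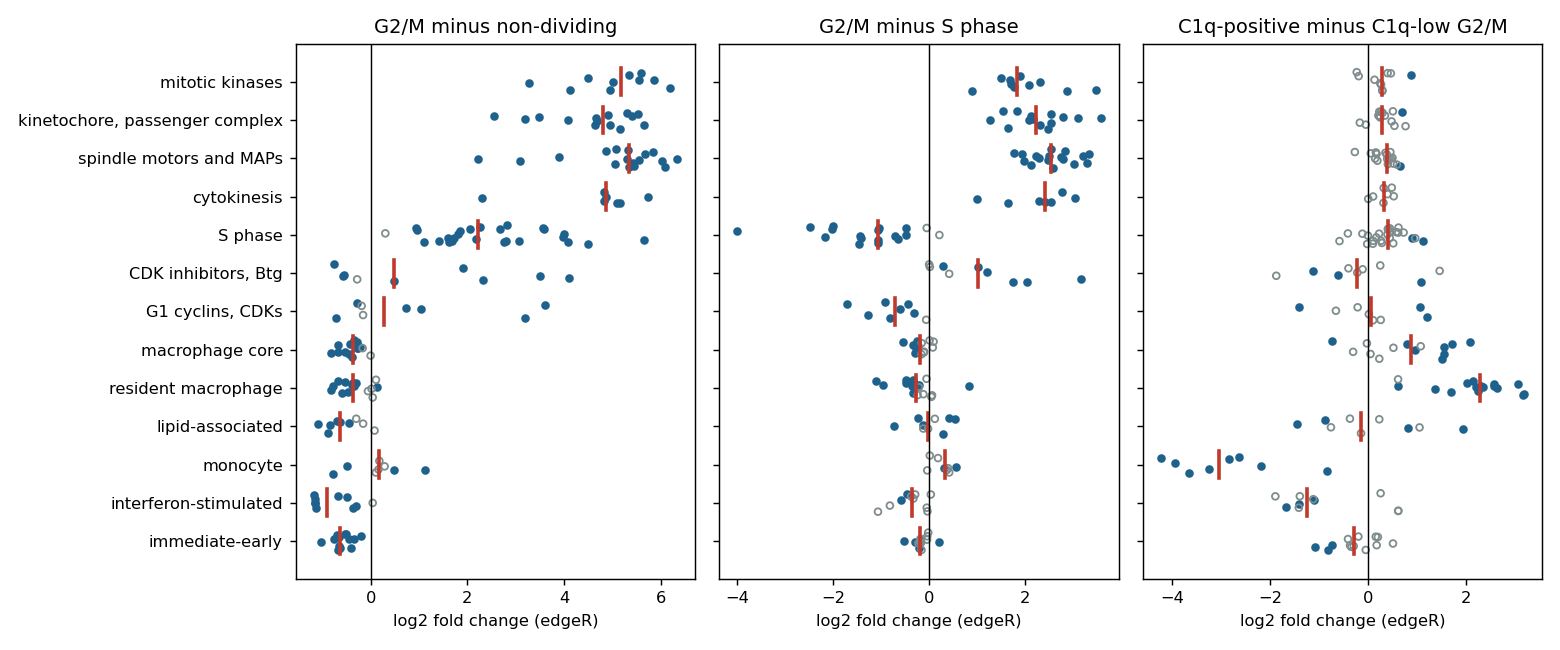
Each point is a gene of the list named on the y axis, and the x axis gives the edgeR log2 fold change of G2/M macrophages over non-dividing cells (left), over S phase cells (middle), and over C1q-low G2/M cells (right). Filled points passed an adjusted p under 0.05, open points did not, and red bars are list medians; the mitotic lists lie far to the right in the left panel and near 0 in the right panel, where the resident macrophage list is at 2.27.

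Most macrophage identity genes took a smaller share of the UMIs in G2/M macrophages. Of the 14 genes of the macrophage list 12 were lower and 0 higher (median log2 fold change -0.37), and of the 16 resident macrophage genes 11 were lower and 1 higher (-0.37). The summed macrophage list was lower in every library, while the summed resident list was lower in the vehicle libraries and higher with SB225002, at 11542, 9631 and 7657 CPM against 13523, 11196 and 7127 CPM. Lyz2, the lysozyme of myeloid cells, was at 2088, 2995 and 5259 CPM in the G2/M macrophages and at 4063, 5247 and 8618 CPM in non-dividing cells (log2 fold change -0.82 ± 0.05, edgeR adjusted p = 5.4e-11). Apoe, which carries lipids out of the cell, was at 5962, 5879.5 and 6341 CPM against 8950.3, 11899 and 13367 CPM (-0.88 ± 0.06, edgeR adjusted p = 9.81e-10). Both were lower in all 3 libraries, and the call of Lyz2 was lost without the block. Mertk, a receptor for dead cells, fell by 0.66 ± 0.07 on the log2 scale, Igf1, a growth factor, by 0.68 ± 0.08 and Lyve1, whose call was also lost without the block, by 0.77 ± 0.10. Spi1, the transcription factor PU.1 of the myeloid lineage, stood at 424, 394 and 464 CPM against 414, 417 and 459 CPM (0.00 ± 0.06, edgeR adjusted p = 0.992), and Cx3cr1 at 549, 479 and 333 CPM against 576, 485 and 293 CPM (0.04 ± 0.07, edgeR adjusted p = 0.654).

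Counted per cell, the same lists were not lower. A G2/M macrophage held on average 11745, 10844 and 9916 UMIs, and a non-dividing cell 7685, 6294 and 5279. The 14 macrophage genes gave 91.2, 91.7 and 108 UMIs per G2/M macrophage and 85.8, 79.4 and 84.7 per non-dividing cell, and the 16 resident genes gave 136, 104 and 75.9 against 104, 70.5 and 37.6. The part that capture efficiency has in the number of UMIs per cell was not tested.

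Early response and interferon genes also took a smaller share of the UMIs. All 13 immediate-early genes, which are switched on within minutes of a stimulus and also by tissue digestion, were lower in G2/M macrophages (median -0.64), and Atf3, a stress-induced transcription factor, was at 55.9, 61.6 and 43.6 CPM against 118, 122 and 91.4 CPM (log2 fold change -1.03 ± 0.08, edgeR adjusted p = 4.1e-09). Klf2, a transcription factor of quiescent cells, was at 176, 186 and 137 CPM against 299.9, 339.7 and 192 CPM (-0.70 ± 0.08, edgeR adjusted p = 1.1e-06, not called without the block). Per cell, the immediate-early genes gave 40.5, 34.2 and 21.8 UMIs in G2/M macrophages and 37.1, 31.3 and 15.4 in non-dividing cells. Of 10 interferon-stimulated genes 9 were lower (median -0.90), with Oas1a at 0.04 ± 0.10 the one that was not called. Per cell, these 10 genes gave 4.33, 3.40 and 4.69 UMIs in G2/M macrophages and 3.45, 2.61 and 3.84 in non-dividing cells. Slfn5, an interferon-responsive gene of the Schlafen family, was at 30.4, 35.1 and 37.2 CPM against 113, 101 and 110.2 CPM (-1.65 ± 0.09, edgeR adjusted p = 4.54e-11). Of the genes with a mean of at least 50 CPM, Mxd4, a repressor that opposes MYC, was among the 10 lowest, at 49.8, 51.8 and 38.5 CPM against 119, 121 and 96.4 CPM (-1.26 ± 0.08, edgeR adjusted p = 2.83e-10).

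Some of the lowest genes were neutrophil genes. Ltf, Ngp and Camp, granule proteins of neutrophils, had log2 fold changes of -1.67, -1.38 and -1.28, and 7 of the 8 neutrophil genes were lower. Camp was not called with DESeq2 or without the block, and Ngp not with DESeq2. The summed neutrophil genes stood at 2803, 9539 and 8211 CPM in G2/M macrophages and at 6777, 11088 and 9172 CPM in non-dividing cells. Without the cells that held at least 1% of such UMIs, the sums were 124, 271 and 495 CPM against 116, 257 and 526 CPM, so they were no longer lower in the vehicle libraries. Gpnmb was at 2.15, 32.6 and 165 CPM in G2/M macrophages against 13.3, 81.7 and 307 CPM (-1.10 ± 0.12, edgeR adjusted p = 1.38e-06, not called without the block), and 6 of the 9 genes of its lipid-associated list were lower and 0 higher (median -0.63). Per cell, this list gave 84.7, 96.2 and 144 UMIs in G2/M macrophages and 83.1, 98.3 and 133 in non-dividing cells. Of 8 monocyte genes 2 were higher and 2 lower: Ly6c2, a surface protein of inflammatory monocytes, was at 14.4, 76.7 and 120.1 CPM against 13.7, 34.1 and 46.0 CPM (1.13 ± 0.14, edgeR adjusted p = 2.77e-06), which was not called with DESeq2, without the block or with cells matched on depth. In P10-sham_vehicle its level differed little between the classes.

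Inhibitors of the cell cycle differed in direction, which is again a description. Cdkn1a, the p21 protein that halts cells after stress, was at 179, 138 and 130.5 CPM in the G2/M macrophages against 245, 204 and 219 CPM in non-dividing cells (log2 fold change -0.57 ± 0.07), and Btg2, an anti-proliferative gene, at 153, 142 and 119.9 CPM against 253, 257 and 195 CPM (-0.75 ± 0.07). Cdkn2c, the p18 inhibitor of CDK4 and CDK6, was at 176, 140.4 and 143 CPM against 16.0, 15.4 and 9.75 CPM (3.5 ± 0.10). Cdkn2d, the related p19 inhibitor, was at 93.8, 93.9 and 124 CPM against 24.1, 28.2 and 31.9 CPM (1.90 ± 0.08). Of 9 inhibitors and Btg genes tested, 5 were higher and 3 lower. The D cyclins, which start the cycle, were not higher: Ccnd1 stood at 173, 146 and 173 CPM against 239, 162 and 169 CPM (-0.18 ± 0.09), and Ccnd2 and Ccnd3 had log2 fold changes of -0.72 and -0.29.

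S phase C1q-positive cells are the nearest dividing class, and the comparison with them asks what differed between the phases. Of 11006 genes, 1221 were higher (11.1%) and 1393 lower (12.7%) in G2/M macrophages, against 432 and 280 without the block, 436 and 261 with DESeq2, and 748 and 709 without P10-MI_vehicle. The median log2 fold change of all genes was -0.02. Of the 77 other G2/M genes 75 were higher (median 2.16), and the exceptions, Wee1 (0.23 ± 0.12) and Pkmyt1 (-0.05 ± 0.11), encode the kinases that hold cyclin B with CDK1 inactive until mitosis. Ube2c was at 19.9, 26.5 and 57.4 CPM in the S phase cells (log2 fold change 4.17 ± 0.17). Mcm4, of the helicase that opens DNA for copying, was at 29.8, 34.7 and 27.1 CPM in G2/M macrophages and at 125, 125 and 115 CPM in S phase (-2.02 ± 0.09). The gates of both classes were set on such genes, so these directions follow from the choice of cells.

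The G1 regulators and the inhibitors, also genes of the cycle, are described in the same way. Ccnd1 stood at 173, 146 and 173 CPM in G2/M and at 443, 349 and 389.6 CPM in S phase (log2 fold change -1.27 ± 0.07), and Ccne2, the cyclin of S phase entry, at 13.8, 11.8 and 9.63 CPM against 34.9, 42.9 and 37.0 CPM (-1.71 ± 0.15). Of 8 G1 cyclins and CDKs 7 were lower in G2/M and 0 higher. Cdkn2c was 2.04 ± 0.11 higher in G2/M than in S phase, Cdkn2d 1.75 ± 0.10 and Cdkn1b, the p27 inhibitor, 1.02 ± 0.11, and of 9 inhibitors and Btg genes 6 were higher and 0 lower. Lyve1 was at 154, 113 and 84.6 CPM in G2/M macrophages and at 224, 286 and 172 CPM in S phase (-0.96 ± 0.11, edgeR adjusted p = 1.2e-05), and Mgl2, a lectin of resident macrophages, was at 53.5, 56.7 and 37.2 CPM against 109, 124 and 82.3 CPM (-1.11 ± 0.08, edgeR adjusted p = 7.84e-08). Of 16 resident genes 9 were lower and 1 higher (median -0.27), and of 14 macrophage genes 7 were lower (median -0.19).

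C1q-low cells that met the same mitotic rule numbered 13 in P10-sham_vehicle, 44 in P10-MI_vehicle and 112 in P10-MI_SB225002. Because C1q set the classes apart, genes that go with C1q are a description here, whereas the mitotic rule was the same on both sides. Of 9910 genes, 474 were higher (4.78%) and 567 lower (5.72%) in G2/M macrophages, and 80 and 86 without P10-MI_vehicle or 713 and 1011 without P10-sham_vehicle. The median log2 fold change of all genes was 0.01. Of the 77 other G2/M genes 5 were higher and 1 lower (median 0.28). Nusap1 was at 316, 233 and 178 CPM in the G2/M macrophages against 177, 133 and 122 CPM in C1q-low cells (0.65 ± 0.14, edgeR adjusted p = 0.0184), while Ube2c at 424, 407 and 638 CPM in C1q-low cells differed by 0.25 ± 0.14 (edgeR adjusted p = 0.3).

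Some inhibitors and D cyclins differed between these dividing classes. Of 9 inhibitors and Btg genes tested 1 was higher, 2 were lower and 6 were not called. Of 8 G1 cyclins and CDKs 2 were higher, 1 was lower and 5 were not called. Ccnd1 was at 53.0, 46.1 and 98.4 CPM in the C1q-low G2/M cells and higher in G2/M macrophages (1.19 ± 0.20, edgeR adjusted p = 0.00531), whereas Ccnd3 was at 294, 232 and 223 CPM in C1q-low cells against 73.5, 104 and 107 CPM (-1.42 ± 0.19, edgeR adjusted p = 0.00217). Cdkn2c was 1.09 ± 0.17 higher in G2/M macrophages and Cdkn2d lower (-1.11 ± 0.17), with edgeR adjusted p = 0.00398 and 0.00353. The calls of Ccnd1, Cdkn2c and Cdkn2d were lost without P10-MI_vehicle. Of the identity genes, 15 of 16 resident genes were higher (median 2.27), with Cbr2, a carbonyl reductase of resident macrophages, at 440.2, 447 and 269.9 CPM against 147, 39.7 and 10.8 CPM (3.15 ± 0.43). All 8 monocyte genes were lower (median -3.05), with Ly6c2 at 1266, 803 and 644 CPM in the C1q-low cells. Col1a1, a fibroblast collagen, was at 0, 706 and 563 CPM in C1q-low cells and at 5.53, 4.49 and 5.32 CPM in G2/M macrophages, and the 8 neutrophil genes summed to 33291, 46809 and 9229 CPM in C1q-low cells. The part that fibroblast and neutrophil RNA has in this comparison was not tested.

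Histone transcripts varied widely among the G2/M macrophages. Histone genes were taken by symbol, as all 70 that start with Hist1h, Hist2h, Hist3h or Hist4h, and not each need be replication-dependent. Replication-dependent histones are made in S phase to pack new DNA. Most of their mRNAs end in a stem-loop and not in a poly(A) tail, and the libraries are labelled as polyA RNA. The 70 genes summed to 13011, 8165 and 5865 CPM in the G2/M macrophages, to 2172, 2292 and 2425 CPM in S phase cells and to 920.4, 982 and 859 CPM in non-dividing cells. The class gated on mitotic genes held more of them than the class gated on replication genes in every library. Of 59 histone genes tested, 59 were higher in G2/M than in S phase (median log2 fold change 1.78), and 58 were higher and 1 lower than in non-dividing cells (3.23).

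The level ranged widely from cell to cell. At least 1% of UMIs came from histones in 140 of 277 G2/M macrophages of P10-sham_vehicle (50.5%, interval 44.5 to 56.6), in 75 of 226 of P10-MI_vehicle (33.2%, 27.1 to 39.7) and in 91 of 398 of P10-MI_SB225002 (22.9%, 18.8 to 27.3). Under 0.2% came from histones in 78, 81 and 161 cells. The histone-rich share was highest in P10-sham_vehicle and lowest in P10-MI_SB225002, and thinning to 3000 UMIs left it at 51.1%, 34.5% and 25.7%. In S phase cells the histone-rich share was 7.03%, 8.55% and 8.35%, with intervals that overlapped. Hist1h2ap was at 2844, 1502 and 1179 CPM in G2/M macrophages, a log2 ratio of -0.92 for P10-MI_vehicle over P10-sham_vehicle (interval -0.98 to -0.87) and of -0.35 for P10-MI_SB225002 over P10-MI_vehicle (-0.41 to -0.29), and at 60.5, 59.3 and 62.4 CPM in non-dividing cells.

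**Figure D3:**
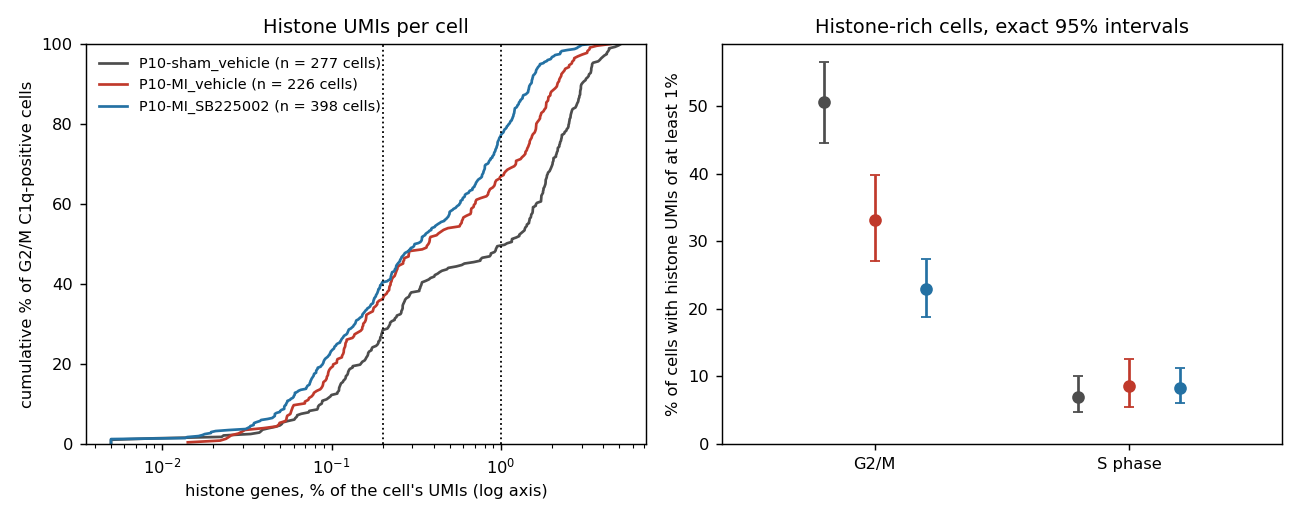
Left, the cumulative percentage of G2/M macrophages (y axis) by the percentage of a cell's UMIs from 70 histone genes (x axis, log scale; cells without a histone UMI are drawn at the left edge), with dotted lines at 0.2% and 1%. Right, the percentage of cells with at least 1% histone UMIs in G2/M and S phase, with exact 95% intervals of counting error; the G2/M points run from 50.5% to 22.9% and the S phase points lie between 7.03% and 8.55%.

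Histone-rich G2/M macrophages held more of the replication genes than histone-poor ones. This is a description, since the split was made on these cells and the genes were picked after their values were seen. Esco2, which joins sister chromatids during replication, was at 138, 149 and 117 CPM in histone-rich cells and at 9.85, 4.87 and 10.4 CPM in histone-poor cells. Rrm2, the ribonucleotide reductase subunit of S phase, was at 97.1, 124 and 168 CPM against 10.9, 17.0 and 20.2 CPM, and Pcna, the replication clamp, at 289, 282 and 299.6 CPM against 66.8, 84.0 and 62.7 CPM. All 3 were higher in histone-rich cells of each library. Cdc20, which acts late in mitosis, was lower, at 100.1, 123 and 164 CPM in histone-rich cells and 253, 196 and 262 CPM in histone-poor cells, as did Cenpa, the centromere histone, at 244, 251 and 269.7 CPM against 534, 447 and 462 CPM. The mitotic lists differed in direction. The 8 rule markers were lower, and summed to 1153, 1263 and 1241 CPM in histone-rich cells and 1950, 1600 and 1531 CPM in histone-poor cells. Plk1 among them stood at 155, 144 and 173 CPM and at 154, 142 and 178 CPM. The 9 cyclin and CDK switch genes summed to 1280, 1381 and 1434 CPM and to 1577, 1334.5 and 1475 CPM. Other lists were higher in histone-rich cells. The 7 cytokinesis genes summed to 1619, 1641 and 1440.4 CPM in histone-rich cells and 1385, 1157 and 965 CPM in histone-poor cells. The 10 mitotic kinases summed to 1299, 1266 and 1323 CPM and to 883, 595 and 699 CPM. The 26 S phase genes summed to 1899, 1958 and 2145 CPM in histone-rich and to 581, 636 and 646 CPM in histone-poor cells. In S phase cells they summed to 2719, 2679 and 2772 CPM, and in non-dividing cells to 299.7, 271 and 303 CPM. Histone-rich cells had on average 3.54, 3.47 and 3.45 of the 8 replication genes of which S phase cells needed 4, and histone-poor cells 1.31, 1.53 and 1.55. The 14 macrophage genes were at 7570.3, 8021 and 9888 CPM in histone-rich cells against 7994, 8792 and 12396 CPM. Of 3437 genes with a mean of at least 50 CPM, 38 were more than 2-fold higher and 12 more than 2-fold lower in all 3 libraries. The 10 lowest included neutrophil genes, with S100a9 at 464, 1155 and 954 CPM in histone-rich and 3731, 4438 and 3212 CPM in histone-poor cells, and the part of neutrophil RNA in this split was not tested.

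Between the groups, G2/M macrophages were compared by the ratio of summed CPM, with exact intervals for counting error. Of 1817 genes with at least 100 CPM in P10-sham_vehicle or P10-MI_vehicle, 24 were more than 2-fold higher (1.32%) and 4 more than 2-fold lower (0.22%) in P10-MI_vehicle, and the median log2 ratio was -0.04. Of 1800 genes for P10-MI_SB225002 over P10-MI_vehicle, 9 were higher (0.5%) and 12 lower (0.667%), with a median of 0.02. In non-dividing cells 12 genes were higher and 2 lower of 1710 for P10-MI_vehicle over P10-sham_vehicle. For P10-MI_SB225002 over P10-MI_vehicle, 17 were higher and 22 lower of 1724. Both comparisons use the P10-MI_vehicle library and are given side by side only. At a minimum of 20 CPM the counts in G2/M macrophages were 97 (1.43%) and 17 (0.25%) of 6794 genes, and 30 (0.443%) and 55 (0.812%) of 6771. In non-dividing cells at this minimum, 1.08% were higher and 0.0924% lower for P10-MI_vehicle, and 0.847% and 0.909% for P10-MI_SB225002.

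Spp1, osteopontin, a secreted matrix protein of lipid-associated macrophages, was among the 10 highest ratios of both comparisons. It stood at 98.7, 873 and 4818 CPM in the G2/M macrophages and at 140.3, 1499.5 and 7376 CPM in non-dividing cells, so that the log2 ratios in G2/M were 3.15 (2.98 to 3.32) and 2.46 (2.40 to 2.53). Arg1, an arginase of reparative macrophages, was at 6.15, 64.9 and 357 CPM in G2/M (3.40 and 2.46), and at 3.03, 199 and 631 CPM in non-dividing cells (6.03 and 1.67). Gpnmb was at 2.15, 32.6 and 165 CPM (3.92 and 2.34), Fabp5, a fatty acid carrier, at 37.2, 128 and 603 CPM (1.78 and 2.23) and Fn1, fibronectin, at 92.5, 299.5 and 755 CPM (1.69 and 1.33). All 5 genes were lowest in P10-sham_vehicle and highest in P10-MI_SB225002, in G2/M macrophages and in non-dividing cells. Plac8 and Ly6c2, genes of monocytes, were at 27.0, 181 and 227 CPM and at 14.4, 76.7 and 120.1 CPM, higher in both MI libraries than in P10-sham_vehicle.

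**Figure D4:**
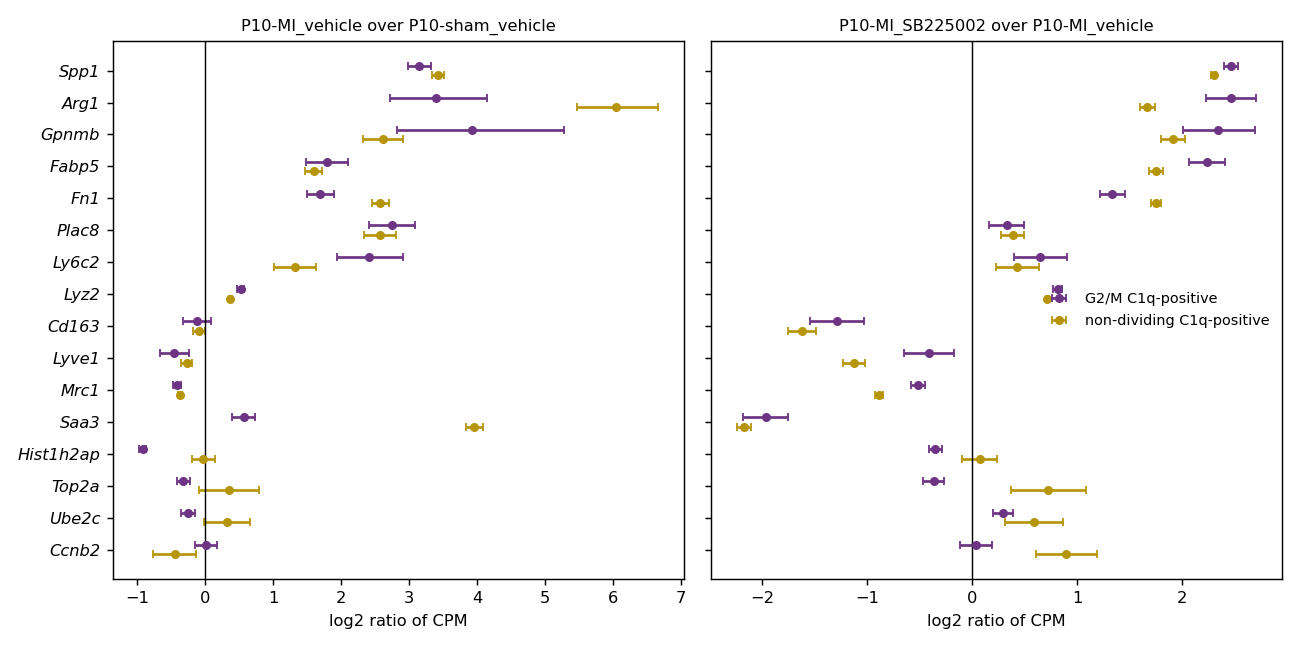
Log2 ratio of CPM (x axis) of 16 genes (y axis) for P10-MI_vehicle over P10-sham_vehicle (left) and P10-MI_SB225002 over P10-MI_vehicle (right), in G2/M macrophages and in non-dividing C1q-positive cells, with exact 95% intervals of counting error. Spp1 lies far to the right in both classes of both panels, and Hist1h2ap lies left of 0 in G2/M macrophages, while its intervals in non-dividing cells include 0.

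Other genes were lower in an MI library. Cd163, a scavenger receptor of resident macrophages, was at 141, 129.8 and 53.2 CPM in the G2/M macrophages, a log2 ratio of -1.29 (-1.54 to -1.03) for SB225002 over vehicle, and at 215, 202 and 65.7 CPM in non-dividing cells. Saa3, an acute-phase protein, was at 169.7, 251 and 64.4 CPM in G2/M and at 68.5, 1065 and 236 CPM in non-dividing cells, with log2 ratios for P10-MI_vehicle over P10-sham_vehicle of 0.56 (0.40 to 0.73) and 3.96 (3.84 to 4.08). Cxcl2, a neutrophil-attracting chemokine, was at 291, 126 and 108 CPM in G2/M (-1.20, -1.39 to -1.01, for P10-MI_vehicle over P10-sham_vehicle) and at 233, 194 and 124 CPM in non-dividing cells. The Saa3 level in G2/M differed with the number of markers, at 13.5, 351 and 40.7 CPM in cells with 4 to 5 markers and at 278, 182 and 86.8 CPM in cells with 6 to 8, so the ratio over all G2/M macrophages does not hold for each part of them. Of the 15 resident genes with at least 20 CPM, 1 was more than 2-fold lower with SB225002 and 3 had a ratio above 1 (median log2 ratio -0.41), against 5 of 16 and 1 in non-dividing cells (-0.72). The shares of all genes lower at this minimum were 0.812% and 0.909%.

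Of the 77 other G2/M genes, 0 were past 2-fold in either comparison, where few of all genes were (1.43% higher and 0.25% lower, and 0.443% and 0.812%). They had a median log2 ratio of -0.25 for P10-MI_vehicle over P10-sham_vehicle (7 of 77 above 0) and of -0.08 for P10-MI_SB225002 over P10-MI_vehicle (27 of 77 above 0), where all genes with at least 20 CPM had medians of -0.05 and -0.02. Top2a, the topoisomerase that untangles chromosomes, was at 749.7, 599 and 464 CPM, and Mki67, the coat of mitotic chromosomes, at 1039, 979 and 702 CPM. Ccna2, cyclin A2, was at 245, 262 and 256 CPM and Ccnb2, cyclin B2, at 227, 228 and 233 CPM. Top2a and Mki67 were lowest with SB225002, and the ratios of the cyclins had intervals that include 0. Top2a was at 972, 1073 and 785 CPM in histone-rich G2/M macrophages and at 478, 290 and 262 CPM in histone-poor ones. Histone-rich cells were 50.5%, 33.2% and 22.9% of the G2/M macrophages, and the part of this in the ratios was not tested.

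Stefins and other neutrophil genes were among the 10 highest ratios of P10-MI_vehicle over P10-sham_vehicle. Stfa1, a protease inhibitor of granulocytes, was at 84.8, 768 and 655 CPM, and Retnlg, a secreted protein of neutrophils, at 16.0, 135 and 367 CPM. When the 4, 16 and 29 cells with at least 1% neutrophil UMIs were left out, a setting added after the data were seen, the genes higher in P10-MI_vehicle fell in number from 24 to 10, and the log2 ratio of Camp for P10-MI_SB225002 over P10-MI_vehicle went from 2.07 to -0.68. Whether these cells were doublets, carried free RNA or were mixed in another way was not tested.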

How the data were processed

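Cells of 3 mouse heart libraries were analysed. The values are UMI counts for each symbol and barcode as the authors deposited them, without normalization, and include barcodes outside the study's cell limits. The libraries were made with the BMKGENE DG1000 system. The submitters' processing notes name mm10 and Seurat 4.1.0, and the aligner, counter and annotation are not given in the sources used here. Each table held 54752 gene rows. The members, classes and gene lists were chosen with earlier results of these data known.

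Cells were kept with the study's limits on UMIs, genes and mitochondrial share, then classed by the rule. Doublets were kept. UMIs were summed per class and library (2450699 to 3946415 in G2/M macrophages), scaled to CPM, and tested with edgeR 4.0.16 in R 4.3.3 (quasi-likelihood test, TMM factors, genes filtered by expression, library as block, Benjamini-Hochberg adjustment). The block is the library from which both classes came. P-values measure agreement over 3 libraries of different conditions, with hearts pooled. Alternatives were DESeq2 1.42.0, its size factors, no block, no filter, depth-matched cells, leaving out each library, other gates, removal of high doublet scores (Scrublet in scanpy 1.11.5), and thinning to 3000 UMIs. Intervals are at 95% and cover counting error only (Clopper-Pearson for shares, Newcombe for their differences, exact conditional for a ratio of summed UMIs). The scripts were tested on simulated data. Genes were named as the rule's genes, the 10 highest and 10 lowest called genes with a mean of at least 50 CPM, the 10 highest and lowest ratios between groups with at least 100 CPM, and members of the lists. Promoters came from RefSeq (GRCm38.p6), matched by symbol.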

Additional observations from a re-analysis of the deposited data

Results flagged for a closer look

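In 3 gene lists the difference between G2/M and non-dividing C1q-positive cells pointed one way in a library and the other way in another, with counting intervals beyond 0 on both sides, and the difference between libraries was not tested. For the resident macrophage genes, the log2 ratio of summed CPM was -0.23 in P10-sham_vehicle, -0.22 in P10-MI_vehicle and 0.10 in P10-MI_SB225002. For the G1 cyclins and CDKs it was -0.17 in P10-sham_vehicle, 0.062 in P10-MI_vehicle and 0.15 in P10-MI_SB225002. For the monocyte genes it was -0.13 in P10-sham_vehicle, 0.27 in P10-MI_vehicle and 0.059 in P10-MI_SB225002. Each group has 1 library, so a difference of group cannot be told apart from one of library.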

How the results depend on the processing

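The share of G2/M macrophages was lowest in P10-MI_vehicle under each alternative run, and the size of the differences moved. For P10-MI_vehicle minus P10-sham_vehicle the difference was -1.19 percentage points in cells thinned to 3000 UMIs and -1.74 with marker UMIs at 0.1% or more. For P10-MI_SB225002 minus P10-MI_vehicle it was 4.90 with at least 3 markers, 5.71 with a C1q limit of 1%, 1.0 in thinned cells and 5.02 in thinned cells with at least 2 markers.

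Without the replicate block, in which both classes of a library share its number, 1122 and 422 genes were higher and lower in G2/M than in non-dividing cells and 432 and 280 than in S phase. With DESeq2 the counts were 1370 and 892 against non-dividing cells, 436 and 261 against S phase, and 282 higher against C1q-low cells. With no filter on low counts, 931 and 1027 genes differed from C1q-low cells. Leaving out each library in turn gave 1759 to 2158 higher and 1535 to 1807 lower genes against non-dividing cells, 748 to 1204 and 709 to 1296 against S phase, and 80 to 713 and 86 to 1011 against C1q-low cells, the lowest without P10-MI_vehicle in each case. Between groups, a minimum of 20 CPM gave 97 and 17 genes for P10-MI_vehicle over P10-sham_vehicle and 30 and 55 for P10-MI_SB225002 over P10-MI_vehicle, at least 5 markers gave 2 lower genes for the former, and removal of neutrophil-rich cells gave 10 higher genes for the same comparison and turned Camp to a log2 ratio of -0.68 for the latter. No called gene named from the paired tests changed direction. Genes near 0 that were not called did. Against non-dividing cells matched on depth Ccnd1 was at 0.018, Mrc1 at 0.17 and Spi1 at -0.10, and Spi1 was at -0.0038 with DESeq2 size factors, -0.0036 with DESeq2, -0.042 with no filter and -0.018 without high doublet scores. Leaving out each library gave -0.163 to 0.0068 for Mrc1, -0.025 to 0.103 for Cx3cr1, -0.056 to 0.167 for Oas1a and -0.014 to 0.029 for Spi1. Against S phase it gave -0.011 to 0.446 for E2f8 and -0.15 to 0.019 for Pkmyt1, and against C1q-low cells -0.046 to 0.129 for Spi1, which was at -0.024 without high doublet scores. The cause of these shifts was not tested. Depth limits the C1q-low class of P10-sham_vehicle, which held 13 cells.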
